A study of Mus musculus with 4 samples.

Results

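The 8 Frizzled genes Fzd1 to Fzd8 and the co-receptor genes Lrp5 and Lrp6 were followed across 4 RNA sequencing libraries of YAMC cells, a conditionally immortalised mouse line that the labels call young adult colonocytes. They were taken by gene name, and all 10 were found, each in 1 row, among 29179 genes of the deposited table. All 10 were also among the 15274 genes with enough reads to be compared. The study asked which genes depend on Sirt6, a nuclear NAD-dependent deacylase, when cells are exposed to the inflammatory cytokine tumour necrosis factor (TNF). The 4 groups were Sirt6 siRNA with TNF, Sirt6 siRNA in medium, control siRNA with TNF, and control siRNA in medium, with 1 library each. Every culture, of passage 10 to 12, received 50 nM siRNA by lipofection and was moved 24 h later from 33 to 37 °C into medium free of interferon-γ. TNF at 100 ng/mL, or medium alone, was given at 48 h for 24 h. With 1 library a group there is no replicate error. Every difference therefore compares libraries, no p-value is given for a pair of libraries, and the intervals are 95% intervals of counting error only.

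Libraries held 18793708 to 23749380 reads assigned to genes. Sirt6 was at 7.03 normalised RPM (reads per 1000000 library reads, scaled between libraries by TMM) with Sirt6 siRNA and TNF and at 18.8 with control siRNA and TNF. In medium it was at 7.11 with Sirt6 siRNA and at 17.1 with control siRNA, so the libraries went with their siRNA labels. The label of colonocyte did not go with all defining genes. Of 12 intestinal epithelial markers, 4 were read well enough to be compared, namely Cdh1 and the keratin genes Krt8, Krt18 and Krt19, while Cdx1 and Car1 had no read and Epcam had 2 reads in a single library. The 4 mesothelial markers, Upk3b, Msln, Wt1 and Krt7, summed to between 1725 and 2259 RPM. Of 8 fibroblast markers 7 were read, with Col1a1 at 2656 to 3431 RPM and Lum at 0 in all. The 4 immune markers in the table summed to 6.07 to 7.73 RPM, nearly all from Cd68, and the 3 endothelial markers to 9.10 to 11.7 RPM. The 5 smooth muscle markers summed to 324 to 454 RPM, nearly all from Tagln and Acta2. Cnn1, Des and Myh11 were at 3.05 RPM or less in every library.

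Frizzled proteins are membrane receptors that bind Wnt ligands through a cysteine-rich extracellular domain and pass the signal to Dishevelled. In the branch that stabilises beta-catenin, a Wnt bridges a Frizzled to Lrp5 or Lrp6, large single-pass receptors whose cytoplasmic tails then hold Axin. In the intestine this branch keeps the crypt stem cells dividing, and the membrane ligases Rnf43 and Znrf3 limit it by clearing Frizzleds from the cell surface. Fzd1, Fzd2 and Fzd7 are close relatives, as are Fzd5 and Fzd8, and Fzd3 and Fzd6. Fzd4 also serves as the receptor for norrin, and Fzd3 and Fzd6 are best known in mice for planar polarity.

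Levels of different genes were compared per kilobase of the longest transcript in GENCODE M21, because the deposited values carry no gene length. Lrp5, whose loss in mice lowers bone mass, stood highest per length in all 4 libraries, at 14.5 RPM per kilobase with Sirt6 siRNA and TNF, 14.6 with Sirt6 siRNA in medium, 16.6 with control siRNA and TNF and 16.7 with control siRNA in medium. With the median transcript length in place of the longest it stood at 32.3 to 37.1 RPM per kilobase. That was under Fzd6 at 60.1 to 72.8 and Lrp6 at 48.8 to 57.4 in every library. The median length is 750 bases for Fzd6 and 1848.5 for Lrp6, against longest transcripts of 4325 and 9368. For Lrp5 it is 3998, against 8893. By the longest transcript, Fzd6, Fzd7 and Lrp6 came next, at 8.65 to 13.2 RPM per kilobase. In the control siRNA medium library they followed in that order, at 12.6, 11.5 and 11, and the intervals of neighbours overlapped. Fzd1 and Fzd2 lay below them in every library, at 5.51 to 9.01 and at 3.46 to 7.65 RPM per kilobase. Fzd8 and Fzd5, at 2.20 to 3.40, could not be placed apart in any library. Fzd4 lay under both, at 1.18 to 2.30, and Fzd3 was the lowest, at 0.202 to 0.243 RPM per kilobase and with 50 to 70 reads in each library. The other Frizzled genes of the mouse were hardly read. Fzd9 had 4 reads with Sirt6 siRNA and TNF, 10 with Sirt6 siRNA in medium, 2 with control siRNA and TNF and 10 with control siRNA in medium. Fzd10 had 2 reads in the last of these libraries and none in the others.

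**Figure D1:**
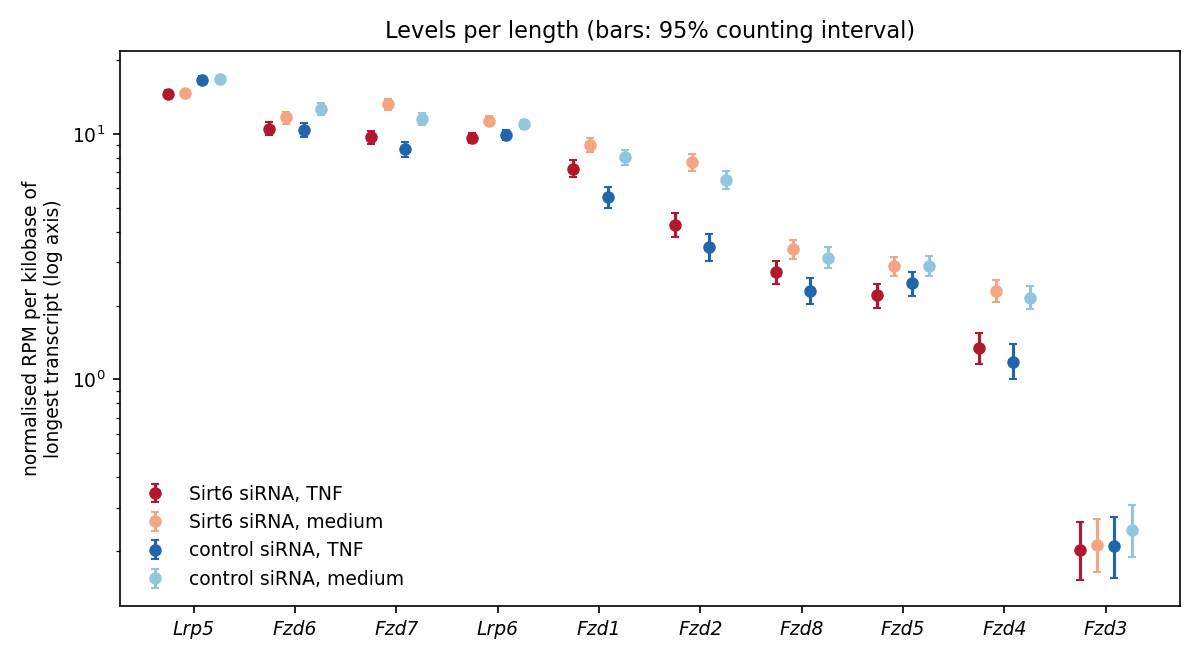
Level of each receptor gene per kilobase of its longest transcript, in normalised RPM per kilobase on a log axis, with 4 points a gene for the libraries and bars for the 95% counting interval. Lrp5 stood highest in all 4 libraries and Fzd3 lowest, at 0.202 to 0.243.

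Of the summed Frizzled signal per kilobase of the longest transcript, Fzd6 and Fzd7 held the 2 highest shares in each library. Fzd6 held 27.6% with Sirt6 siRNA and TNF, 23.2% with Sirt6 siRNA in medium, 30.5% with control siRNA and TNF and 26.8% with control siRNA in medium. The share of Fzd7 was 25.4%, 26.2%, 25.3% and 24.5% in the same libraries. Fzd2 held 11.2% and 10.1% with TNF, against 15.2% and 13.8% in medium, with the Sirt6 siRNA library first in each pair. Without length, Fzd6 held 21.5 to 27.9% of the Frizzled reads and Fzd7 23.7 to 25.5%. Shares by the median transcript length, which moves Fzd6 far up, were not computed.

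The gene models fall into different forms. In GENCODE M21 the coding sequence of Fzd1, Fzd2, Fzd5, Fzd7 and Fzd8 lies in 1 exon, that of Fzd4 in 2 and that of Fzd3 and Fzd6 in 6, while Lrp5 and Lrp6 each have 23 coding exons. Little of their sequence is shared with other genes. For 9 of the 10 at most 2.12% of 50-base sequences recur in transcripts of another gene on either strand. For Fzd5 it is 16.5%, all through the opposite-strand model Gm38058, which overlaps 17.8% of its exonic bases. The counting was not stated to use strand, so reads of Fzd5 and of that model cannot be told apart.

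The first comparison asked what TNF did to the receptors. Of the 10 genes, 8 had a lower level with TNF than in medium beyond counting error under both siRNAs, by unequal amounts. That count uses the interval alone, a rule added after seeing the data. Of all genes compared, 23.8% were lower in this way with Sirt6 siRNA and 22.8% with control siRNA. The share lower in both was not computed. Fzd2 and Fzd4 were lowest relative to medium, at 53.3 to 58.4% of it. Fzd1, Fzd7, Fzd8, Fzd5, Fzd6 and Lrp6 were lower by smaller amounts, and the intervals of Lrp5 and Fzd3 included no change. None reached a ratio of 2. A gene was said to rise or fall at a ratio of at least 2 with a counting interval that left out no change. By that rule 0 of the 10 passed with Sirt6 siRNA, where 3.66% of the compared genes passed either way, and 0 of the 10 with control siRNA, where 3.53% passed. At a ratio of 1.5, Fzd2 and Fzd4 were past the threshold on the lower side in both comparisons. With Sirt6 siRNA 5.36% of all genes were past it on that side, and with control siRNA 4.46%. Both genes were thus among the 350 genes, 2.29% of those compared, past it in both.

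Fzd2 had 15.6 RPM with Sirt6 siRNA and TNF, against 28.0 RPM with Sirt6 siRNA in medium. With control siRNA it had 12.7 RPM with TNF, against 23.8 RPM in medium. Both TNF libraries lay under both medium libraries, and none of the counting intervals of the TNF libraries reached those of the medium libraries. The log2 ratio was -0.84 with Sirt6 siRNA (-1.04 to -0.65) and -0.91 with control siRNA (-1.14 to -0.69), that is 1.79-fold and 1.88-fold lower. Of the 8188 genes whose mean level lay within that of the members other than Fzd3 (11.7 to 139 RPM), 0.904% had a lower ratio than Fzd2 with Sirt6 siRNA and 0.672% with control siRNA.

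Fzd4 had 9.0 RPM with Sirt6 siRNA and TNF, against 15.5 RPM with Sirt6 siRNA in medium. With control siRNA it had 7.96 RPM with TNF, against 14.5 RPM in medium. Here too both TNF libraries lay under both medium libraries. The log2 ratios were -0.78 (-1.04 to -0.53) and -0.86 (-1.15 to -0.58), or 1.71-fold and 1.81-fold lower. The 2 genes did not differ from each other beyond counting error: the log2 ratio of Fzd2 minus that of Fzd4 was -0.06 (-0.38 to 0.25) with Sirt6 siRNA and -0.05 (-0.41 to 0.30) with control siRNA.

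Fzd1 had 30.3 RPM with Sirt6 siRNA and TNF, against 37.8 RPM in medium, and with control siRNA 23.1 RPM with TNF, against 33.7 RPM in medium. Its log2 ratios were -0.32 (-0.47 to -0.17) and -0.54 (-0.72 to -0.37). Fzd7, a Frizzled known from intestinal stem cells, had 43.9 RPM with Sirt6 siRNA and TNF, against 59.8 RPM in medium, and with control siRNA 39.2 RPM, against 52.3 RPM. Its ratios were close to each other, at -0.44 (-0.57 to -0.33) and -0.41 (-0.55 to -0.28). Both genes therefore lay lower in each TNF library than in its medium library, by less than Fzd2.

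Fzd8 had 16.3 RPM with Sirt6 siRNA and TNF, against 20.3 RPM in medium, and with control siRNA 13.7 RPM, against 18.7 RPM. The log2 ratios were -0.31 (-0.52 to -0.11) and -0.45 (-0.68 to -0.23). Its relative Fzd5, needed for Paneth cell maturation in mice, had 15.2 RPM with Sirt6 siRNA and TNF, against 20.0 RPM in medium, and with control siRNA 17 RPM, against 20.1 RPM. Its ratios were -0.39 (-0.60 to -0.19) and -0.24 (-0.46 to -0.04), so the pair was lower with TNF by like amounts.

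Fzd6 had 45.5 RPM with Sirt6 siRNA and TNF, against 50.4 RPM in medium, and with control siRNA 45.1 RPM, against 54.6 RPM. Its log2 ratios were small, at -0.15 (-0.27 to -0.02) and -0.28 (-0.40 to -0.15). Fzd3 had 2.58 RPM with Sirt6 siRNA and TNF, against 2.70 RPM in medium, and with control siRNA 2.67 RPM, against 3.09 RPM. At that depth a TNF difference was not detectable for Fzd3, with intervals of -0.61 to 0.47 and -0.76 to 0.33.

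The co-receptors differed from each other. Lrp5 had 129 RPM with Sirt6 siRNA and TNF, against 129.7 RPM in medium, and with control siRNA 147 RPM, against 148 RPM. Its log2 ratio was -0.01 in both comparisons, with an interval of -0.08 to 0.07 each time, and its sign turned with the scaling or the filter. Lrp6 had 90.3 RPM with Sirt6 siRNA and TNF, against 106 RPM in medium, and with control siRNA 92.7 RPM, against 103 RPM, which gave ratios of -0.23 (-0.32 to -0.15) and -0.15 (-0.24 to -0.06).

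**Figure D2:**
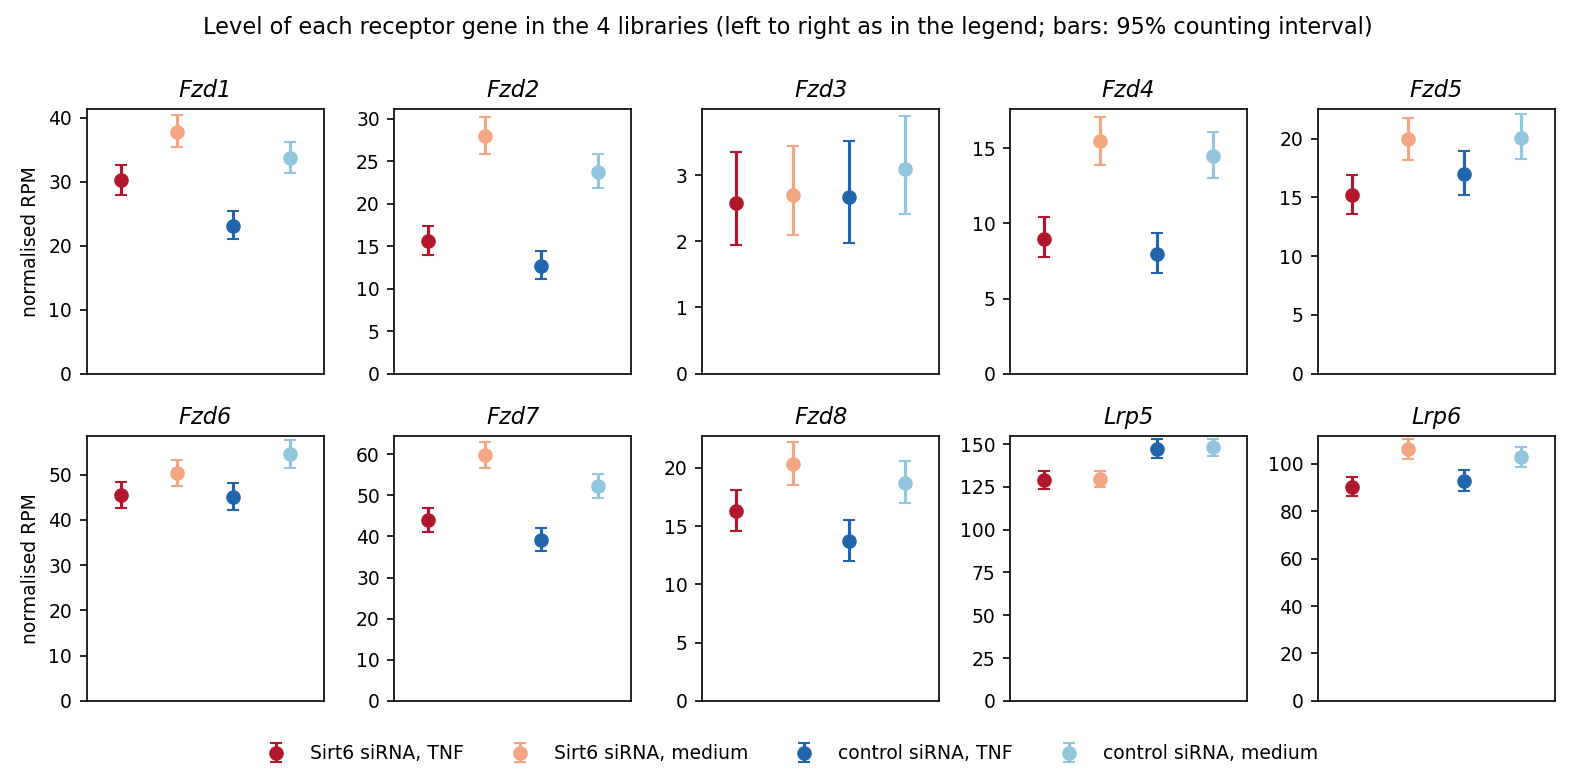
Level of each receptor gene in normalised RPM in the 4 libraries, with bars for the 95% counting interval. For each gene but Lrp5 both TNF points sit under both medium points, although intervals of single libraries overlap for several genes. The share of all genes with this order was not computed, and for Fzd3 the intervals of the TNF ratios included no change. For Lrp5 both Sirt6 siRNA points sit under both control siRNA points.

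Counted by interval alone, without a size, 8 of the 10 genes were lower with TNF in each comparison and none higher. With Sirt6 siRNA 23.8% of all genes were lower and 23.6% higher, and with control siRNA 22.8% were lower and 20.9% higher. Among the 8188 genes of like level 27.4% and 27.0% were lower. The exceptions were Fzd3 and Lrp5 both times. The median log2 ratio over the 10 was -0.32 with Sirt6 siRNA and -0.35 with control siRNA, beside -0.01 and 0.00 over all genes compared. In an additive edgeR quasi-likelihood fit of all 4 libraries, the same 8 genes passed the 0.05 threshold on the adjusted p with a lower level under TNF, as did 15.1% of all genes. The adjusted p from edgeR was 1.5e-15 for Fzd2 (log2 -0.88), 2.1e-08 for Fzd4 (log2 -0.82) and 0.95 for Lrp5. These p-values rest on 1 residual degree of freedom and on a spread pooled over genes, not on replicates.

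**Figure D3:**
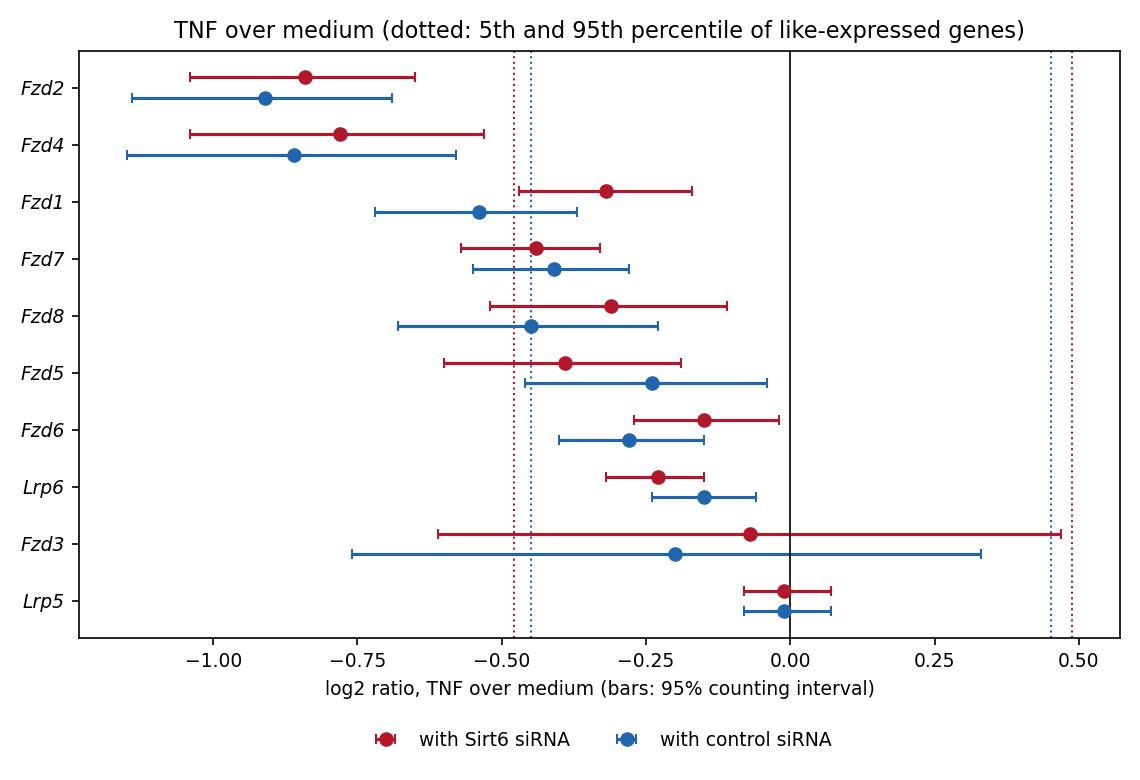
Log2 ratio of TNF over medium for each gene, with Sirt6 siRNA (upper point) and control siRNA (lower point) and 95% counting intervals. Dotted lines mark the lowest and highest 5% of genes of like level. Fzd2 and Fzd4 lie outside the lower line under both siRNAs and Lrp5 sits at 0.

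Differences among the genes were measured within libraries, where the scaling cancels. Of 45 pairs of the 10 genes, 24 had TNF ratios whose difference left out 0 with Sirt6 siRNA and 26 with control siRNA. In 21 pairs this held both times with the same sign, and in 0 with opposite signs. The 45 pairs reuse the same 10 genes. The share among pairs of all compared genes was not computed, so the counts describe these 10 only. Fzd2 was the lower one in 8 of its 9 pairs both times and Fzd4 in 7 of its 9. Lrp5 was the higher one in 7 of its 9. Reads of Fzd7 were 2.81 times those of Fzd2 with Sirt6 siRNA and TNF, against 2.13 times in medium, and 3.10 times with control siRNA and TNF, against 2.19 times in medium. Summed, the Frizzleds stood at 178 RPM with Sirt6 siRNA and TNF, against 234 RPM in medium, and with control siRNA at 161 RPM, against 221 RPM. The 2 co-receptors summed to 219 RPM with Sirt6 siRNA and TNF, against 236 RPM in medium, and with control siRNA to 240.2 RPM, against 251 RPM. The log2 ratio of the Frizzled sum minus that of the co-receptor sum was -0.29 (-0.37 to -0.21) with Sirt6 siRNA and -0.39 (-0.48 to -0.30) with control siRNA. Lrp5 gave more of the co-receptor reads than Lrp6 in every library. Beside Lrp6 alone, Fzd2, Fzd4 and Fzd7 were lower beyond counting error in both comparisons, and Fzd1 and Fzd8 with control siRNA alone. Fzd3, Fzd5 and Fzd6 did not differ from Lrp6 beyond counting error in either.

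Gene properties and cell markers were set beside these ratios. The transcripts of Fzd2 hold 56.6% G and C. Genes within 2 points of that had a median TNF log2 ratio of -0.13 with Sirt6 siRNA and -0.07 with control siRNA. At the composition of Fzd4, 47.0%, the medians were 0.01 and 0.00, and at that of Lrp5, 54.7%, they were -0.09 and -0.05. Genes with their coding sequence in 1 exon, 900 of those compared, had medians of -0.04 and -0.03. The summed level of the mesothelial markers was 1861 RPM with Sirt6 siRNA and TNF, against 2259 RPM in medium, and with control siRNA 1725 RPM, against 2062 RPM. That of the smooth muscle markers, nearly all Tagln and Acta2 reads, was 324 RPM, against 363 RPM, and with control siRNA 387 RPM, against 454 RPM. That of the fibroblast markers, mostly Col1a1 reads, was 3528 RPM, against 4363 RPM, and with control siRNA 3279 RPM, against 4019 RPM. The epithelial markers, nearly all keratin reads, summed to 1184 RPM, against 1493 RPM, and with control siRNA to 1338 RPM, against 1811 RPM. These 4 sums were lower with TNF. That of the endothelial markers was higher, at 11.1 RPM, against 9.10 RPM, and with control siRNA at 11.7 RPM, against 9.58 RPM. Immune markers summed to 6.14 RPM, against 6.07 RPM, and with control siRNA to 6.68 RPM, against 7.73 RPM. The part of composition, coding exons or these markers in the result was not tested. In bulk RNA, fewer cells of a type and less RNA per cell cannot be told apart.

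Promoters of 4 of the 10 genes (Fzd1, Fzd4, Fzd5 and Fzd7) were matched in RefSeq sequences of GRCm38.p6, each running from 250 bases before the gene start to 50 after it. Those of Fzd4 and Fzd1 are shown, because they stand for the 2 kinds of make-up seen among the 4. The TNF log2 ratio of Fzd1 minus that of Fzd4 was 0.46 (0.17 to 0.75) with Sirt6 siRNA and 0.32 (-0.01 to 0.65) with control siRNA, so beyond counting error in the first alone. Capitals mark CCAAT on either strand in Fzd4 (chr7:89404116-89404415, plus strand) and the TCF/LEF core CTTTGA on either strand in Fzd1 (chr5:4758167-4758466, minus strand), 5′ to 3′ on the strand of the gene.
Fzd4: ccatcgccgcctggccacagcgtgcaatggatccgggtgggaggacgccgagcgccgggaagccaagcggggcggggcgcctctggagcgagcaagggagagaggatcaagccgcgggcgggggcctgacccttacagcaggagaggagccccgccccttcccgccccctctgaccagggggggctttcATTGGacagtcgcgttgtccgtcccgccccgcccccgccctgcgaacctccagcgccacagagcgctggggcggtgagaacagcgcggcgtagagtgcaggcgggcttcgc
Fzd1: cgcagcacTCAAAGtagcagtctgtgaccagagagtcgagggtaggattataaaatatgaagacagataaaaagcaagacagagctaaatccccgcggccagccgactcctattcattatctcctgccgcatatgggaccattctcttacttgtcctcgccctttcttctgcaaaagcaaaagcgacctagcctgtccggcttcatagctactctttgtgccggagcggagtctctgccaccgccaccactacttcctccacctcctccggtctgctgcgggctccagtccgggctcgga
The Fzd4 promoter holds 72.7% G and C, with 8 matches to the GC box GGGCGG and 1 to CCAAT. That of Fzd1 holds 54.0%, with no match to either and 1 to CTTTGA. Of 32851 promoters in the table, 35.7% hold GGGCGG, 37.4% CCAAT and 16.0% CTTTGA on either strand. Fzd7, with 7 GC boxes and 2 CCAAT matches, and Fzd5, with 10 and 1, were of the make-up of Fzd4. The TNF log2 ratio of Fzd4 minus that of Fzd7 was -0.33 (-0.61 to -0.06) with Sirt6 siRNA and -0.45 (-0.76 to -0.14) with control siRNA. Against Fzd5 the difference was -0.39 (-0.71 to -0.06) and -0.62 (-0.96 to -0.27). A link of promoter make-up to the TNF ratios was not tested. None of the 4 holds the NF-kB motif searched, which 1.63% of promoters hold. Matches describe the letters only.

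The second comparison asked what Sirt6 siRNA did to the receptors. No ratio was past 0.39 on the log2 scale in either direction. Fzd1, Fzd2 and Fzd7 were somewhat higher with Sirt6 siRNA both with TNF and in medium, and Lrp5 was 1.14-fold lower in both. The other genes did not move one way beyond counting error in both. Of all genes compared, 14.9% were higher beyond counting error with TNF and 14.8% in medium. Lower were 12.5% with TNF and 16.7% in medium. The share that moved one way in both was not computed. By the 2-fold rule 0 of the 10 passed with TNF, where 1.05% of genes passed either way, and 0 of the 10 in medium, where 1.01% passed. The comparisons with TNF and in medium have no library in common, but each shares its libraries with the TNF comparisons above.

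Lrp5, at 129 RPM with Sirt6 siRNA and TNF against 147 RPM with control siRNA and TNF, had a log2 ratio of -0.19 (-0.27 to -0.11). In medium it stood at 129.7 RPM with Sirt6 siRNA, against 148 RPM with control siRNA, and the ratio was again -0.19 (-0.26 to -0.12). Both Sirt6 siRNA libraries lay under both control siRNA libraries. A lower ratio was held by 18.1% of all genes with TNF and 15.2% in medium, and among the genes of like level by 9.11% and 11.1%. The additive edgeR fit gave Lrp5 an adjusted p of 0.0048. As with TNF, that fit rests on 1 residual degree of freedom and on a spread pooled over genes, not on replicates. Lrp6 showed no difference like that of Lrp5, with ratios of -0.04 (-0.13 to 0.06) with TNF and 0.05 (-0.03 to 0.13) in medium. Lrp5 minus Lrp6 was -0.15 (-0.27 to -0.03) with TNF and -0.24 (-0.35 to -0.13) in medium.

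Fzd1 stood at 30.3 RPM with Sirt6 siRNA and TNF, against 23.1 RPM with control siRNA and TNF, a log2 ratio of 0.39 (0.21 to 0.57). In medium it stood at 37.8 RPM, against 33.7 RPM with control siRNA, a ratio of 0.17 (0.03 to 0.31). With TNF 95.5% of genes had a lower ratio than Fzd1, and 80.6% in medium. Fzd2 had ratios of 0.30 (0.06 to 0.55) with TNF and 0.23 (0.07 to 0.40) in medium, and Fzd7 of 0.16 (0.02 to 0.30) and 0.19 (0.08 to 0.31). The additive edgeR fit gave adjusted p-values of 0.027 for Fzd1, 0.12 for Fzd2 and 0.11 for Fzd7. These p-values too rest on 1 residual degree of freedom, not on replicates. Summed, Fzd1, Fzd2 and Fzd7 stood at 89.8 RPM with Sirt6 siRNA and TNF, against 75 RPM with control siRNA and TNF. In medium the sum was 126 RPM with Sirt6 siRNA, against 109.8 RPM.

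For the rest, Fzd8 had ratios of 0.25 (0.02 to 0.49) with TNF and 0.12 (-0.07 to 0.31) in medium, and Fzd4 of 0.17 (-0.14 to 0.50) and 0.09 (-0.12 to 0.31). Fzd5 had -0.16 (-0.39 to 0.07) and -0.01 (-0.20 to 0.18), and Fzd6 0.01 (-0.12 to 0.15) and -0.12, with an interval in medium that ended just under 0. Fzd3 had intervals of -0.63 to 0.53 and -0.70 to 0.31. Counted by interval alone, 4 of the 10 were higher with TNF, beside 14.9% of all genes, and 1 lower, beside 12.5%. In medium 3 were higher, beside 14.8%, and 2 lower, beside 16.7%. In the additive edgeR fit, Fzd1 was the 1 gene of the 10 that was higher with Sirt6 siRNA past the adjusted p threshold of 0.05, as were 3.43% of all genes, and Lrp5 the 1 that was lower, as were 3.16%.

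**Figure D4:**
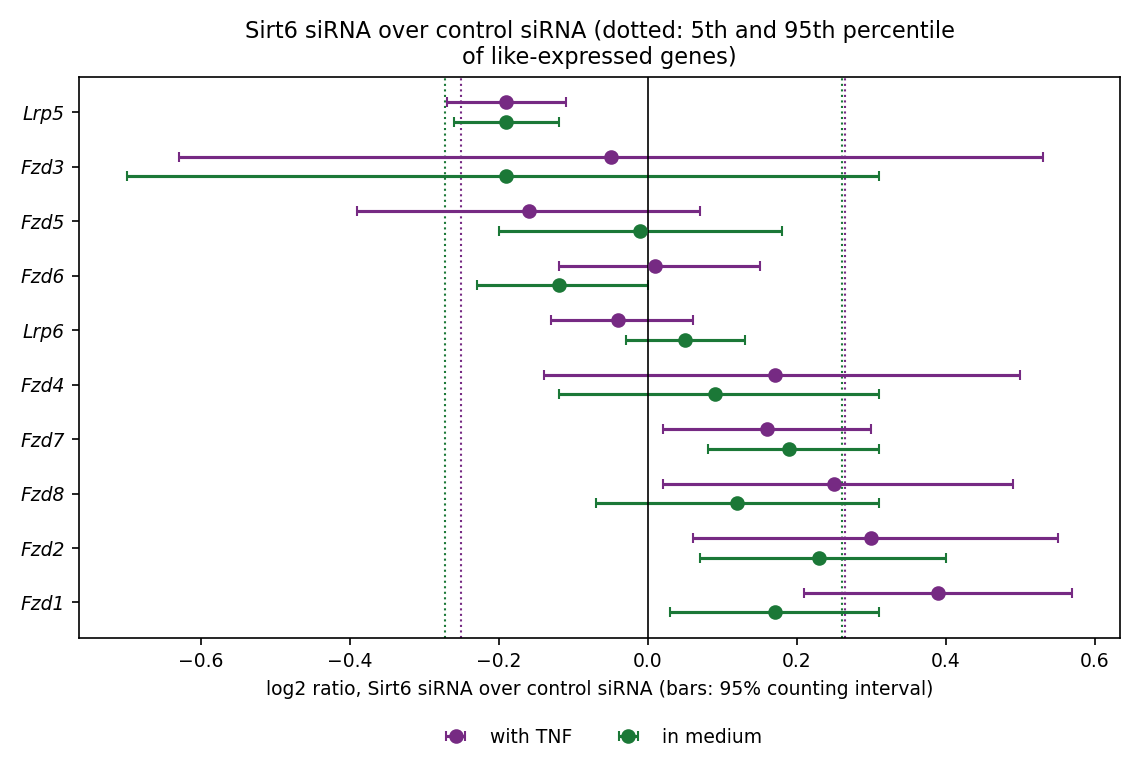
Log2 ratio of Sirt6 siRNA over control siRNA for each gene, with TNF (upper point) and in medium (lower point) and 95% counting intervals. Dotted lines mark the lowest and highest 5% of genes of like level. Lrp5 lies at -0.19 in both comparisons, and Fzd1 with TNF lies at 0.39.

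Whether the TNF response depended on Sirt6 was read from the difference of the TNF ratios, Sirt6 siRNA minus control siRNA. For none of the 10 genes did it reach 1 on the log2 scale with an interval that left out 0, where 1.68% of genes passed. It left out 0 for none of the 10 even without a size, where 21.1% of genes did. The difference was largest for Fzd1, at 0.22 with an upper bound of 0.45 and a lower bound just under 0. It was 0.07 (-0.22 to 0.36) for Fzd2, 0.08 (-0.29 to 0.46) for Fzd4, -0.03 (-0.21 to 0.15) for Fzd7 and 0.00 (-0.10 to 0.10) for Lrp5. A Sirt6-dependent part of the TNF response of up to those bounds was not detectable at this depth.

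Other genes of the pathway were described through 9 lists of 109 entries. Lrp4 stands in 2 lists, and the LRP chaperone gene was entered under an older and a newer symbol. Of the entries' 108 names 106 were matched in the table, and 73 had enough reads to be compared. Over all genes compared, 1.49% fell and 2.17% rose with TNF under Sirt6 siRNA, and 1.24% fell and 2.29% rose under control siRNA. Of the other class F receptors only Smo, the hedgehog signal transducer, was compared. It stood at 92.5 RPM with Sirt6 siRNA and TNF, against 128 RPM in medium, and with control siRNA at 86.0 RPM, against 121 RPM. Its log2 ratios, -0.47 and -0.49, were short of the 2-fold rule, and it is named as the list's only compared gene.

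Of 9 other Wnt receptors and co-receptors, none fell in either TNF comparison, and 1, the Wnt5a receptor gene Ror2, rose with control siRNA (2.17-fold), on 45 reads with TNF and 24 in medium. Ror2 had a log2 ratio of 0.28 (-0.32 to 0.92) with Sirt6 siRNA. The list's median was -0.06 with Sirt6 siRNA and -0.28 with control siRNA. Of 5 R-spondin receptors, ligands and receptor-clearing ligases, 2 fell and 1 rose with Sirt6 siRNA (median -0.19), and 1 fell with control siRNA (median -0.15). Lgr4, the R-spondin receptor, was the one that fell both times, at 22.7 RPM with Sirt6 siRNA and TNF, against 48.8 RPM in medium, and at 24.7 RPM with control siRNA and TNF, against 51.0 RPM. Rspo1 fell with Sirt6 siRNA (log2 -1.49, -2.13 to -0.99), against -0.30 (-0.78 to 0.17) with control siRNA. Rspo3 rose with Sirt6 siRNA (log2 1.00, 0.81 to 1.21) and was short of the rule with control siRNA (0.85, 0.63 to 1.07). Znrf3, named after its values were seen because its product clears Frizzleds, had ratios of -0.19 and -0.15.

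Of 9 extracellular inhibitors, 3 fell with Sirt6 siRNA (median -0.63) and 1 with control siRNA (median -0.22), and none rose. Trabd2b, which encodes a protease that inactivates Wnts, fell in both (log2 -1.35 and -1.09). Dkk3 and the secreted Frizzled-related gene Frzb fell with Sirt6 siRNA (log2 -1.03 and -1.14), on 12 and 15 reads with TNF. With control siRNA they were at -0.68 (-1.58 to 0.08) and -0.22 (-1.12 to 0.61). Of 8 planar polarity partners, 1 fell with Sirt6 siRNA (median -0.61) and 3 with control siRNA (median -0.59). Daam2, a formin that binds Dishevelled, fell in both, at 25 RPM with Sirt6 siRNA and TNF against 57.7 RPM in medium, and at 15.4 RPM with control siRNA and TNF against 41.7 RPM. Prickle2 fell with control siRNA (log2 -1.03, -1.37 to -0.71), as did Celsr2, read 8 times with TNF. With Sirt6 siRNA their ratios were -0.52 (-0.87 to -0.18) and -0.70 (-2.26 to 0.48). Of 20 cytoplasmic transducers and TCF factors none passed in either comparison (medians 0.00 and -0.05), and of 5 genes of receptor folding and ligand export none did (medians -0.30 and -0.28).

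Of 7 Wnt ligands, 2 rose with Sirt6 siRNA (median -0.35), and 1 rose and 1 fell with control siRNA (median -0.52). Wnt10a rose in both (2.22-fold and 2.34-fold), Wnt6 rose with Sirt6 siRNA on 22 reads, and Wnt2b fell with control siRNA (log2 -1.36) on 16. Wnt6 was at -0.35 (-1.71 to 0.83) with control siRNA, and Wnt2b at -0.89 (-1.71 to -0.22) with Sirt6 siRNA. Of the other relatives of Lrp5 and Lrp6, Lrp2, megalin, fell with control siRNA alone (log2 -1.09 against -0.37 with Sirt6 siRNA), and the difference between the responses, 0.72 (0.41 to 1.03), was short of its rule. For Sirt6 siRNA 1 gene of the 9 lists passed with TNF, Rspo1, which fell (log2 -1.04), and none in medium, beside 0.655% of all genes that fell with TNF. In the difference of the TNF responses Rspo1 was lower with Sirt6 siRNA (log2 -1.20, -1.94 to -0.52), past a rule that 1.08% of genes passed on that side. Wnt6 was past it on the other side (log2 1.38), as were 0.596% of genes, with 10 to 22 reads a library and an interval that ended at 0.00.

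**Figure D5:**
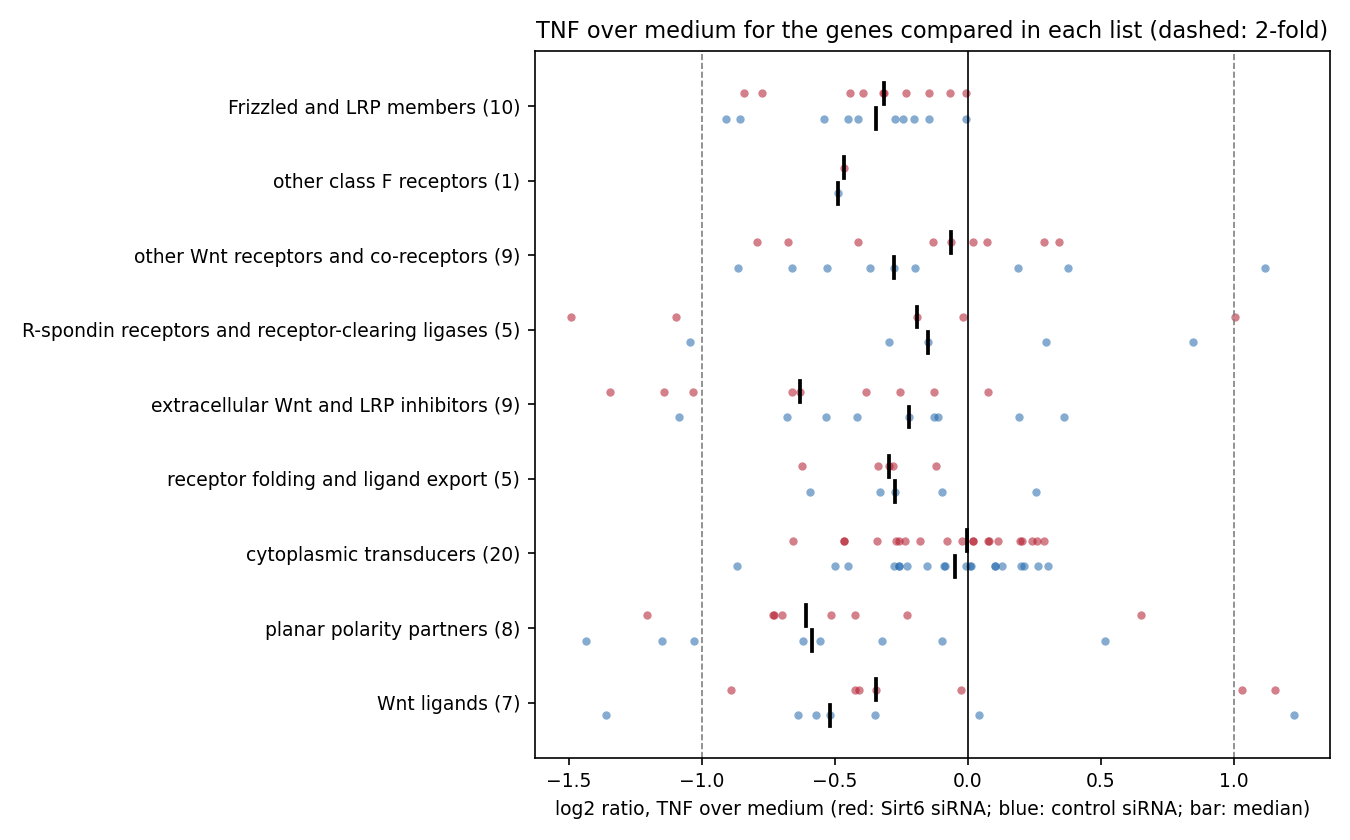
Log2 ratio of TNF over medium for each compared gene of the 10 receptors and of 8 of the 9 lists, with Sirt6 siRNA (upper) and control siRNA (lower), a bar at each median and dashed lines at 2-fold. The receptors lie between -0.91 and -0.01, inside the dashed lines.

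Among the 5 genes, of 9110 other named genes with a mean of at least 10 RPM, whose profile over the 4 libraries lay nearest to that of Fzd2 were Bnc2, Ppp2r2b and Zfp503. Bnc2 and Zfp503 encode zinc finger proteins and Ppp2r2b a subunit of a protein phosphatase. Their Euclidean distances on the centred log2 scale were 0.049, 0.063 and 0.077. Bnc2 stood at 17.4 RPM with Sirt6 siRNA and TNF, against 30.3 RPM in medium, and with control siRNA at 13.5 RPM, against 26.0 RPM. Fzd4 was the 18th nearest, at a distance of 0.14, and the next Frizzled, Fzd1, the 295th. Likeness over 4 libraries is a description only.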

How the data were processed

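The authors deposited whole-number read counts per gene for 4 libraries, per the file headers, and values headed RPKM. The deposited RPKM values equal the count per 1000000 library reads to within 0.0005, with no gene length, and so are RPM; they were not used further. Per the labels' protocols, polyadenylated RNA was taken with oligo-dT beads and built into NEBNext Ultra libraries. CASAVA, Bowtie 1.0.1 and edgeR were named without their steps, per the submitters' processing notes; the build, the annotation and the read counter are not given in the sources used here.

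The 15274 genes reaching 1 RPM in any library were compared. Library sizes were scaled by TMM (edgeR 4.0.16, R 4.3.3), and log2 ratios were computed in Python 3.11.15 with a prior count of 2. Intervals are exact Poisson (levels), exact conditional binomial (ratios) or delta-method with 0.5 added (differences). They cover counting error only, because each group has 1 library. PCR copies cannot be told from separate molecules here, so the intervals may be too narrow even for that error. A count of 0 allows up to 3 reads, 0.126 to 0.160 RPM. Groups of 1 library allowed no replicate test, and nothing in the labels says more than 1 culture was used. An additive edgeR quasi-likelihood fit (siRNA and TNF) was an alternative, its Benjamini-Hochberg p-values adjusted over all genes. The calculations were tested on simulated counts. Names turned into dates were restored through identifiers (27). The members and lists were chosen with earlier results of these data known. Named genes were the 10 members, Sirt6, up to 3 genes a list past the 2-fold rule, and the 5 nearest in profile to the member with the lowest TNF ratios. Some genes that this rule names, and the counts of the list of LRP relatives, are not reported here.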

Additional observations from a re-analysis of the deposited data

How the results depend on the processing

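Of 245 log2 ratios of the 10 genes recomputed with median-of-ratios size factors (DESeq2 1.42.0), library totals alone, no filter, a minimum of 5 RPM or a prior count of 0.5, 240 kept their direction, and all 245 stayed short of the 2-fold rule. No ratio moved by more than 0.06 over these settings. The 5 that changed sign lay close to 0. Fzd6 for Sirt6 siRNA with TNF was 0.01 as reported and -0.01 with library totals alone. For Lrp5 the difference of the TNF responses was 0.00 as reported, -0.03 with library totals alone and -0.01 at 5 RPM. Its TNF ratio of -0.01 came to just above 0.00 with median-of-ratios size factors under Sirt6 siRNA and at 5 RPM under control siRNA. The cause was not tested. Fzd3 stayed out at 5 RPM.

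Counts depended on the threshold and the filter, by construction. With TNF and Sirt6 siRNA the 559 genes became 843 without a filter, 321 at 5 RPM, 1494 at a ratio of 1.5 and 7244 by interval alone, a rule added after seeing the data. With TNF and control siRNA the 539 became 284 at 5 RPM, 1435 at a ratio of 1.5 and 6676 by interval alone. The members past the rule were 0 as reported in both, 2 at a ratio of 1.5, 8 by interval alone and 8 in the additive edgeR fit, which called 4506 genes for TNF. For Sirt6 siRNA with TNF the 160 genes became 388, 15, 496 and 4188 under the first 4 settings in that order, and in medium the 155 became 402, 14, 487 and 4809. There 5 members differed by interval alone in each, and 2 in the additive edgeR fit, which called 1006 genes. For the difference of the TNF responses 256 became 451, 17, 661 and 3225.

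With the median transcript length in place of the longest, 4 to 6 of the 10 genes kept their place in the order of levels. Fzd6 came first and Lrp5 below Lrp6. The 6, with control siRNA and TNF, counts Fzd2, which tied there with Fzd5 at 3.46 RPM per kilobase after rounding. No paired analysis was possible because each group has 1 library and the labels give no replicate numbers. Leaving out a replicate was likewise not possible. Low reads limit Fzd3 most.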
